A study of Mus musculus with 14 samples.

Results

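The autophagy and mitophagy genes described here were 37 genes picked by symbol from a fixed list of autophagy factors, out of 55487 genes in the table of gene counts. The rule takes genes by name and uses no measured value, although it was set with earlier results of these data known. The RNA came from intervertebral discs of the mouse tail, with 5 discs pooled for each mouse and 1 library per mouse. The study compared 2 mouse models of type 2 diabetes, each with its own control group. The db/db mice (n = 3) were homozygous for the Lepr db mutation and so lacked a working leptin receptor, and their controls were heterozygous db/+ littermates (n = 3). These male mice were 3 months old and the labels list no treatment for them; their strain background is not given in the sources used here. The STZ-HFD mice (n = 4) were male C57BL/6J mice, 12 weeks old when taken into the study, that ate a high-fat diet for 4 to 6 weeks, then received a single injection of streptozocin (STZ, a toxin of the insulin-producing beta cells) at 100 mg/kg, and stayed on the diet for 12 more weeks. Their Con+Veh controls (n = 4), which the labels call wild type, were C57BL/6J mice on standard chow that received buffer alone. The 2 models therefore differed in genotype, diet, age and schedule, and each was compared with its own controls. The 2 comparisons shared no mouse. All 14 libraries entered 1 fit, however, so that the filter, the scaling and the estimate of spread depended on both cohorts. The difference between the 2 comparisons was also tested.

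Autophagy is the pathway by which a cell encloses its own proteins and organelles in a double membrane, the autophagosome, and delivers them to the lysosome for breakdown. A kinase complex around ULK1 starts the process, a lipid kinase complex around BECLIN 1 marks the membrane, and lipid transfer proteins let it grow. Ubiquitin-like conjugation then attaches proteins of the Atg8 family (LC3 and GABARAP) to the membrane, where receptors such as p62 bind them and bring in cargo; mitophagy is the same process applied to mitochondria. The disc has little blood supply, and autophagy has often been studied there as a response to low nutrients. These steps are largely driven by proteins, so that the transcripts measured here are not a measure of autophagic flux.

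The libraries held 16076908 to 58943169 counts. Ribosomal RNA, with the mitochondrial ribosomal RNA included, made up 28.1% to 35.5% of the counts in db/db and 28.9% to 39.7% in db/+. It made up 45.8% to 60.2% in Con+Veh and 44.4% to 58.3% in STZ-HFD. All 37 genes passed the filter on low counts, which asked for more than 1 CPM in at least 3 libraries and left 16915 genes. For this filter CPM were counts scaled to library size alone. The CPM values of genes given here were scaled to library size and composition. The lowest count was 34, for Atg5 in Con+Veh replicate 1, and the highest was 17858, for Map1lc3b in db/db replicate 3. STZ-HFD replicate 1 stood apart, with the lowest total and 42626 genes detected against 25194 to 29924 in the other libraries, and Con+Veh replicate 1 had the lowest quality weight (0.275, against 3.05 for Con+Veh replicate 3). Disc markers were present: Acan and Col2a1, which encode matrix proteins of cartilage and annulus, and T and Krt19, which mark the notochord-derived nucleus, all passed the filter, whereas the notochord genes Noto and Shh did not. Of 15 skeletal muscle markers, 7 passed the test as higher in STZ-HFD and 1 as lower in db/db, and their summed level spanned 22845 to 62278 CPM in STZ-HFD and 19318 to 44381 CPM in Con+Veh. Of 12 cartilage and annulus markers, 6 passed as lower in STZ-HFD and 0 in either direction in db/db. Their summed level was 676 to 1414 CPM in STZ-HFD and 1497 to 3489 CPM in Con+Veh, with no overlap. Of single genes, 2.77% were lower in STZ-HFD without overlap. The mean log2 CPM of these markers did overlap, with 4.12 to 4.73 in STZ-HFD and 4.65 to 5.60 in Con+Veh (two-sided exact permutation p = 0.057, adjusted p = 0.381). In STZ-HFD 2 of 8 osteoblast markers were lower, and in db/db 2 of 6 endothelial markers were higher. Of 10 adipocyte markers, the STZ-HFD comparison called 2 and the db/db comparison 4, all higher. The part of these cell types in the values of the autophagy genes was not tested beyond the muscle and adipocyte covariates. With 3 or 4 mice a group, these scores moved with the model, so a covariate cannot separate cell content from it. The adipocyte score (mean log2 CPM) was 5.15 to 5.63 in db/db and 3.83 to 4.57 in db/+. The muscle score was 8.72 to 9.97 in STZ-HFD and 8.60 to 8.92 in Con+Veh. In bulk RNA of this kind, fewer cells of a type and less RNA per cell cannot be told apart.

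The promoters of 30 of the 37 genes were found by symbol in the RefSeq table (build GRCm38.p6), as windows of 300 bases of which 250 lie before the start. The palindromic E-box CACGTG, which the autophagy regulator TFEB and many other factors can bind, was searched on both strands and was found in 4 of these 30 windows (Atg14, Atg3, Atg5 and Atg7), or 13.3%, against 7.24% of all 27025 promoters. The start used in that table lay within 500 bases of the annotated gene start for 23 of the 30 genes; it lay inside the gene by 27999 bases for Atg7 and by 2215 bases for Atg14. The longer CLEAR core TCACGTGA, which contains that E-box, was found for 1 of the 30 genes (Atg3) and in 1.01% of all promoters. The FOXO motif GTAAACA was in 0 of 30 windows (3.55% of all promoters) and the CRE motif TGACGTCA was in 1 (Atg5; 1.88% of all). The 3 upstream stretches belong to the gene with the smallest adjusted p in STZ-HFD (Atg3), the gene with the smallest in db/db (Atg10), and a gene whose db/db and db/+ mice did not overlap (Atg5). They run 5′ to 3′ on the strand of the gene, end before its annotated start, and carry the E-box in capitals. The stretches lie at chr16:45158579-45158784 (Atg3, plus strand, 206 bases), chr10:44268089-44268338 (Atg5, plus strand, 250 bases) and chr13:91223988-91224237 (Atg10, minus strand, 250 bases).
Atg3: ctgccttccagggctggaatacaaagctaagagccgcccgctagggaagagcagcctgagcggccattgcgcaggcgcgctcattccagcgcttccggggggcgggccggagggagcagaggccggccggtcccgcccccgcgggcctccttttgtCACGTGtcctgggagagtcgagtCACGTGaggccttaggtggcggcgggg
Atg5: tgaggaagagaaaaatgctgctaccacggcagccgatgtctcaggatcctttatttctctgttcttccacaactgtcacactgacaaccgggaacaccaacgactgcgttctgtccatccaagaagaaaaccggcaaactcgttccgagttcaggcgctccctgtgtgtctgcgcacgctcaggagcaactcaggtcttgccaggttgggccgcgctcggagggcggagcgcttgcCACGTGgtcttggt
Atg10: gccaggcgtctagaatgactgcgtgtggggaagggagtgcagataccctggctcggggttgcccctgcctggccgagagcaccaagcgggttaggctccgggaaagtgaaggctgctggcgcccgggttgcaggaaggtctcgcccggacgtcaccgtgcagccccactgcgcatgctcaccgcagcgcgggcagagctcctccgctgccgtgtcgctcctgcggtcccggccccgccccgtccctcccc
The Atg3 stretch held 2 E-boxes, centred 47 and 24 bases before its end, and the second of these is the CLEAR core. The Atg5 stretch held 1, centred 11 bases before its end, and the Atg10 stretch held 0. A match is a string of letters and not a shown binding site.

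Levels were compared between genes per kilobase of annotated exon (CPM per kilobase, written RPKM here), as means over the 14 libraries. The 5 highest genes were 3 of the Atg8 family, a cargo receptor and a kinase: Gabarap stood at 46.8 RPKM, Map1lc3a at 46.0, the p62 gene Sqstm1 at 35.0, the mitophagy kinase gene Pink1 at 28.6 and Map1lc3b at 23.6. Map1lc3a was above Gabarap in db/+ (56.8 against 44.6 RPKM) and STZ-HFD (49.1 against 38.9 RPKM), and below it in the other groups. The other Atg8 genes and receptors were lower, with Gabarapl2 at 4.84, Nbr1 at 2.98 and Fundc1 at 1.47 RPKM. No other gene exceeded the 9.22 RPKM of Optn, which encodes the receptor optineurin. By role, the median level was 23.6 RPKM over 5 Atg8 genes, 8.24 over 6 receptor and mitophagy genes, 6.21 over 5 genes of the initiation complex, 2.97 over 5 genes of membrane supply, 1.63 over 10 conjugation genes and 1.31 over 6 genes of the lipid kinase complex. The lowest levels belonged to Atg4d (0.527 RPKM), a protease of Atg8 proteins, and to Becn1 (0.542 RPKM). The exon length of Becn1 used here was 7065 bases, which takes in every annotated transcript, so a level per length may be low for genes with long minor transcripts.

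**Figure D1:**
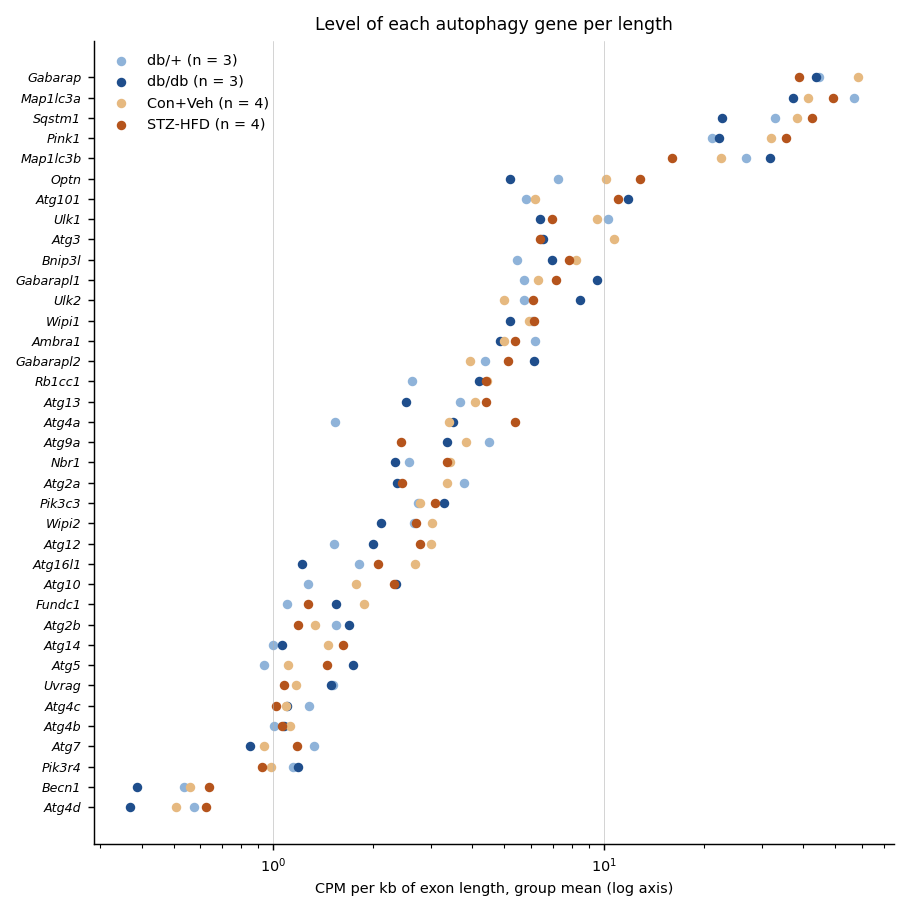
Level of each of the 37 genes as CPM per kilobase of exon (log axis), ordered by the mean over all libraries; each point is a group mean (db/+ and db/db n = 3, Con+Veh and STZ-HFD n = 4). Gabarap, Map1lc3a, Sqstm1, Pink1 and Map1lc3b sit above 10 in every group, and Becn1 and Atg4d sit below 1 in every group.

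The first question was whether the 37 genes differed between each diabetic model and its controls. In db/db against db/+, 0 of 37 passed an adjusted p of 0.05 (limma with Benjamini-Hochberg adjustment over all 16915 genes), where 1.42% of all genes passed as higher and 0.508% as lower. In STZ-HFD against Con+Veh, 0 of 37 passed, where 1.65% of all genes passed as higher and 1.8% as lower. The test of the difference between the models called 0 of 37 (background 0.822% higher and 0.952% lower). With a log2 fold change of at least 1 asked for too, 0 of 37 passed in each (background 1.23% higher and 0.432% lower in db/db, 1.3% and 1.31% in STZ-HFD, 0.816% and 0.952% for the difference). At an unadjusted p under 0.05, 12 of the 37 (32.4%) were found in db/db, 7 of them higher and 5 lower, against 21.1% of all genes, and 6 (16.2%) in STZ-HFD, against 17.9%. The edgeR quasi-likelihood test and DESeq2 also called 0 of 37, but for db/db the former called 0 of all 16915 genes, and for STZ-HFD 0.171% of them; DESeq2 called 1.35% and 1.87%. At an unadjusted p under 0.05 they found 6 and 6 of the 37 in db/db (11.2% and 12.7% of all genes) and 2 and 3 in STZ-HFD (12.6% and 13.9% of all genes). The calls over all genes rested on single libraries too: in STZ-HFD, 584 genes passed in all, and 17 without Con+Veh replicate 3, 18 without Con+Veh replicate 4, 18 without STZ-HFD replicate 3 and 170 without STZ-HFD replicate 4. In db/db, 326 passed, and 21 to 144 when 1 of the db/db or db/+ mice was left out (21 without db/+ replicate 2). The log2 fold changes ran from -0.64 to 1.10 in db/db, with 19 positive and a median of 0.04 (all genes -0.04). Those of STZ-HFD ran from -0.89 to 0.97, with a median of 0.13 (all genes -0.04). Of these, 25 were positive, where 47.2% of all genes were. That count depended on the processing. It was 19 without quality weights, with the edgeR test and with DESeq2 (medians 0.048, 0.054 and 0.066). It was 20 without Con+Veh replicate 3, 16 with the muscle marker score as a covariate, and 26 with each model fitted alone.

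These intervals were wide enough that a missed threshold does not show equal levels. The 95% interval of the log2 fold change stayed between -1 and 1, or within a 2-fold difference either way, for 18 of 37 genes in db/db, 29 in STZ-HFD and 15 for the difference between the models. The median half-width was 0.526 for db/db and 0.489 for STZ-HFD. For 14 of the 37 genes (37.8%) there was no overlap between the 3 db/db and the 3 db/+ mice, 6 with all db/db mice higher (14.1% of all genes) and 8 with all db/db mice lower (11.7% of all genes). In STZ-HFD, 0 of 37 had no overlap, against 1.97% of all genes higher and 2.77% lower.

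**Figure D2:**
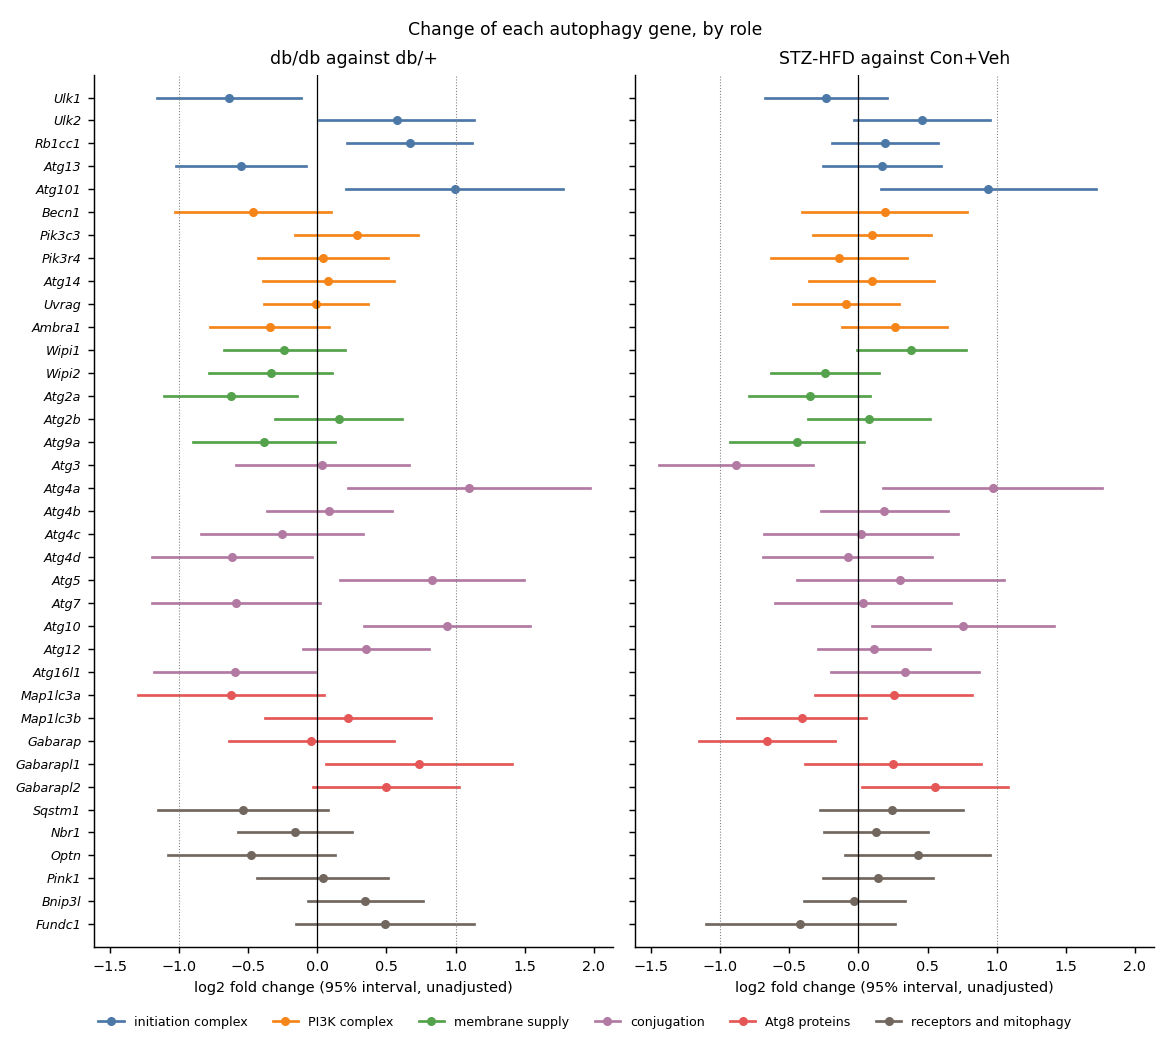
Log2 fold change (point) with its unadjusted 95% interval (line) of each of the 37 genes in db/db against db/+ (left) and STZ-HFD against Con+Veh (right), coloured by role; dotted lines mark -1 and 1. The db/db values run from -0.64 to 1.10 and the STZ-HFD values from -0.89 to 0.97, and the highest 3 in both panels are Atg4a, Atg101 and Atg10.

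The initiation complex holds the kinases ULK1 and ULK2 and their partners FIP200 (Rb1cc1), ATG13 and ATG101. All 5 genes had an unadjusted p under 0.05 in db/db, where 21.1% of all genes did, and none passed the adjusted threshold. Their signs differed: Ulk2, Rb1cc1 and Atg101 were positive, Ulk1 and Atg13 negative. Atg101 (chromosome 15, 101284272 to 101290945), whose protein stabilises ATG13, stood at 21.8, 16.7 and 17.8 CPM in the db/db mice and at 8.86, 10.6 and 8.49 CPM in the db/+ mice. All db/db mice lay above all db/+ mice. The log2 fold change was 0.99 ± 0.37 (SE; adjusted p = 0.144, limma). The gene passed when db/db and db/+ were fitted without the other cohort (1.02, adjusted p = 0.0331, limma). It also passed when STZ-HFD replicate 3 was left out of the fit (0.99, adjusted p = 0.0370, limma). In those fits 2.87% and 2.05% of all genes passed as higher.

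In the other cohort Atg101 stood at 10.1, 13.7, 36.1 and 10.5 CPM in STZ-HFD and at 4.94, 17.4, 8.37 and 8.91 CPM in Con+Veh. The groups overlapped, and the log2 fold change of 0.94 ± 0.37 (SE; adjusted p = 0.181, limma) rested on STZ-HFD replicate 3, without which it was 0.32 (adjusted p = 0.812, limma). Ulk1, the gene of the kinase that receives signals from mTOR and AMPK, gave 34.1, 39.0 and 51.4 CPM in db/db and 50.7, 61.6 and 88.1 CPM in db/+. The highest db/db mouse overlapped the lowest db/+ mouse (log2 fold change -0.64 ± 0.25 SE, adjusted p = 0.154, limma). In STZ-HFD, Ulk1 gave 25.5, 55.0, 48.1 and 51.8 CPM against 83.7, 51.4, 54.2 and 57.3 CPM in Con+Veh, with overlap and a log2 fold change of -0.23 (adjusted p = 0.609, limma). Rb1cc1, the gene of the scaffold FIP200, lay between 51.8 and 68.8 CPM in db/db and between 35.3 and 41.7 CPM in db/+, with no overlap (log2 fold change 0.67, adjusted p = 0.101, limma). Its exons overlap the antisense gene 4732440D04Rik, which reached 734 counts in a library while Rb1cc1 had at least 939 in each.

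The lipid kinase complex makes phosphatidylinositol 3-phosphate on the growing membrane, with VPS34 (Pik3c3) as the kinase, VPS15 (Pik3r4) and BECLIN 1 as its core, and ATG14 or UVRAG as the subunit that decides where it acts. Of its 6 genes, 0 had an unadjusted p under 0.05 in either model. The log2 fold changes ran from -0.46 (Becn1) to 0.28 (Pik3c3) in db/db and from -0.14 (Pik3r4) to 0.26 (Ambra1) in STZ-HFD. Becn1 and Ambra1, the gene of a BECLIN 1 regulator, were lower in every db/db mouse than in every db/+ mouse, with log2 fold changes of -0.46 (adjusted p = 0.331) and -0.34 (adjusted p = 0.345, limma). Atg14 gave 4.38 to 4.73 CPM in db/db and 4.10 to 4.45 CPM in db/+, and spread more widely in the other cohort, with 5.06 to 9.73 CPM in STZ-HFD and 5.41 to 7.22 CPM in Con+Veh.

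Membrane supply depends on ATG9A, a core factor that spans the membrane, on the lipid transfer proteins ATG2A and ATG2B, and on the WIPI proteins, which read the lipid mark. Of these 5 genes, 4 had negative log2 fold changes in db/db (median -0.34) and 3 in STZ-HFD (median -0.24). Atg2a gave 16.0, 19.2 and 19.4 CPM in db/db and 27.6, 23.7 and 35.5 CPM in db/+. There was no overlap (log2 fold change -0.63 ± 0.23 SE, adjusted p = 0.135, limma). In STZ-HFD, Atg2a gave 12.8, 24.5, 18.6 and 19.7 CPM against 37.3, 17.9, 27.5 and 20.7 CPM in Con+Veh, and the groups overlapped (-0.35, adjusted p = 0.398, limma). Atg9a was among the 3 lowest in STZ-HFD, with 8.02, 17.0, 13.2 and 17.9 CPM against 31.4, 18.1, 22.0 and 16.6 CPM in Con+Veh. The groups overlapped (-0.45 ± 0.23 SE, adjusted p = 0.323, limma). In db/db, Atg9a gave 17.5, 22.8 and 17.6 CPM against 21.5, 23.01 and 33.2 CPM in db/+ (-0.38, adjusted p = 0.379, limma).

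Conjugation needs the ubiquitin-like enzymes ATG7, ATG3 and ATG10, the ATG12-ATG5-ATG16L1 complex, and the ATG4 proteases that trim and release Atg8 proteins. This group of 10 genes held the smallest adjusted p of both comparisons and values of both signs. Atg10 (chromosome 13, 90935356 to 91223968), whose enzyme joins ATG12 to ATG5, gave 4.19, 4.18 and 3.79 CPM in db/db and 2.50, 1.62 and 2.46 CPM in db/+. The groups did not overlap, and the log2 fold change was 0.94 ± 0.29 (SE; adjusted p = 0.0854, limma). In STZ-HFD, Atg10 gave 3.29, 2.96, 5.22 and 4.43 CPM against 3.34, 4.32, 2.16 and 2.39 CPM in Con+Veh, with overlap (0.76 ± 0.31 SE, adjusted p = 0.204, limma).

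Atg4a (chromosome X, 140956907 to 141164270), the gene of a protease that acts mostly on GABARAP proteins, gave 13.4, 7.48 and 6.93 CPM in db/db and 3.39, 4.59 and 4.31 CPM in db/+. All db/db mice were higher, with the largest log2 fold change of the 37 genes (1.10 ± 0.41 SE, adjusted p = 0.145, limma). In STZ-HFD, Atg4a gave 10.2, 8.32, 27.2 and 11.3 CPM against 4.18, 17.5, 6.39 and 8.09 CPM in Con+Veh. The groups overlapped, and the log2 fold change of 0.97 ± 0.38 (SE; adjusted p = 0.176, limma) was 0.43 without STZ-HFD replicate 3 (adjusted p = 0.792, limma). STZ-HFD replicate 3 and Con+Veh replicate 2 were the highest libraries of their groups for Atg101, Atg4a and Atg10 alike, and their muscle marker scores (mean log2 CPM) were 9.97, where STZ-HFD spanned 8.72 to 9.97, and 8.85, where Con+Veh spanned 8.60 to 8.92. With the muscle marker score as a covariate, the STZ-HFD log2 fold changes of Atg101, Atg4a and Atg10 kept their sign and did not pass. The part of muscle RNA in these values was not tested further.

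Atg3 (chromosome 16, 45158785 to 45188538), whose enzyme attaches Atg8 proteins to lipid, gave 15.4, 17.4, 15.5 and 32.6 CPM in STZ-HFD and 27.6, 27.9, 45.3 and 34.2 CPM in Con+Veh. Of the STZ-HFD mice, 3 lay below all Con+Veh mice, and replicate 4 lay among them. The log2 fold change was -0.89 ± 0.26 (SE; adjusted p = 0.0734, limma), the lowest of the 37 genes. It was -1.26 without STZ-HFD replicate 4 (adjusted p = 0.0356, limma), and -0.60 without Con+Veh replicate 3 (adjusted p = 0.655, limma), so the call depended on single libraries. In db/db, Atg3 gave 25.3, 17.9 and 18.5 CPM against 27.3, 17.5 and 16.2 CPM in db/+ (0.04, adjusted p = 0.961, limma). The difference between the models was 0.92 ± 0.40 (SE; adjusted p = 0.235, limma). Of the other conjugation genes in db/db, Atg5 was higher in every mouse (0.83) and Atg7, Atg4d and Atg16l1 were lower in every mouse (-0.59, -0.62 and -0.60), with adjusted p from 0.147 to 0.253 (limma).

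**Figure D3:**
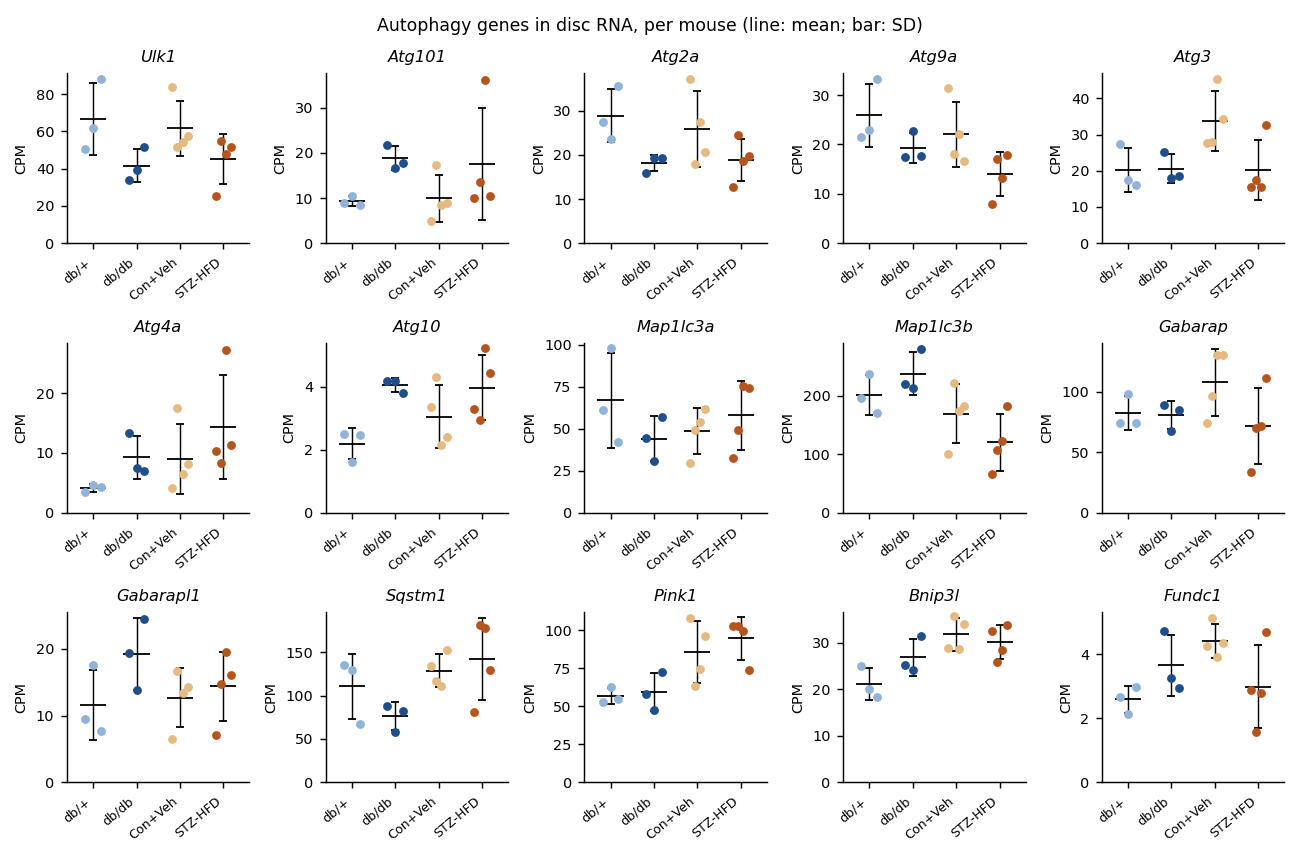
CPM of 15 of the 37 genes in each mouse (points), with the group mean (line) and SD (bar), on linear axes that start at 0; db/+ and db/db n = 3, Con+Veh and STZ-HFD n = 4. Atg101, Atg4a, Atg10 and Atg2a do not overlap between db/db and db/+, and 1 STZ-HFD mouse stands far above the other 3 for Atg101, Atg4a and Atg3.

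The Atg8 proteins LC3 and GABARAP coat the membrane and bind the receptors. Gabarap (chromosome 11, 69991143 to 69994951) gave 33.8, 70.0, 71.6 and 112 CPM in STZ-HFD and 74.2, 96.6, 130 and 131 CPM in Con+Veh. The groups overlapped through STZ-HFD replicate 4 (log2 fold change -0.66 ± 0.23 SE, adjusted p = 0.132, limma). In db/db the gene gave 89.6, 67.7 and 84.9 CPM against 74.4, 98.4 and 73.9 CPM in db/+ (-0.04, adjusted p = 0.948, limma). Map1lc3b, the gene of LC3B, whose lipid-bound form is the usual autophagosome marker, gave 221, 213 and 281 CPM in db/db and 197, 238 and 171 CPM in db/+. In the other cohort it gave 66.9, 108, 124 and 183 CPM in STZ-HFD and 100.8, 223, 174 and 182 CPM in Con+Veh. Both comparisons overlapped (0.22, adjusted p = 0.696, and -0.41, adjusted p = 0.349, limma). The exons of Map1lc3b overlap those of Zcchc14 on the opposite strand, and Zcchc14 reached 4812 counts in a library while Map1lc3b had at least 1628 in each.

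Map1lc3a, the gene of LC3A, gave 44.4, 30.6 and 57.3 CPM in db/db and 61.1, 97.9 and 42.2 CPM in db/+, with overlap (-0.62 ± 0.32 SE, adjusted p = 0.274, limma). In STZ-HFD it gave 32.8, 49.1, 75.6 and 74.3 CPM against 29.9, 49.4, 53.8 and 61.8 CPM in Con+Veh (0.25, adjusted p = 0.675, limma). Gabarapl1, a GABARAP relative that FOXO factors are known to induce in muscle, gave 19.4, 13.8 and 24.5 CPM in db/db and 9.46, 17.5 and 7.62 CPM in db/+. 1 db/+ mouse lay among the db/db mice (0.73 ± 0.32 SE, adjusted p = 0.199, limma). In STZ-HFD, Gabarapl1 gave 7.11, 14.8, 19.5 and 16.1 CPM against 6.41, 16.7, 13.4 and 14.2 CPM in Con+Veh (0.25, adjusted p = 0.722, limma). With the muscle marker score as a covariate, the STZ-HFD values of Map1lc3a and Gabarapl1 changed sign, to -0.61 and -0.56, and the db/db value of Map1lc3a was 0.02.

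The receptors bring cargo to the Atg8 proteins, with p62 (Sqstm1), NBR1 and optineurin for ubiquitin-tagged cargo and BNIP3L and FUNDC1 on mitochondria, where PINK1 is the kinase that marks damaged organelles. None of these 6 genes had an unadjusted p under 0.05 in either model. Sqstm1 gave 88.4, 58.5 and 82.2 CPM in db/db and 135, 130 and 67.2 CPM in db/+, with overlap (-0.54 ± 0.29 SE, adjusted p = 0.301, limma). In STZ-HFD it gave 81.4, 182, 177 and 129 CPM against 135, 117, 111 and 152 CPM in Con+Veh, so that STZ-HFD mice were both the highest and the lowest (0.24, adjusted p = 0.662, limma). With the muscle covariate the db/db value was 0.24 and the STZ-HFD value -0.67. Pink1 gave 58.4, 47.5 and 72.5 CPM in db/db and 52.9, 62.9 and 54.6 CPM in db/+ (0.04, adjusted p = 0.940, limma). In the other cohort Pink1 gave 103, 103, 99.5 and 73.8 CPM in STZ-HFD and 108, 63.7, 74.5 and 96.3 CPM in Con+Veh, with overlap (0.14, adjusted p = 0.752, limma).

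Bnip3l, the gene of the receptor NIX, gave 25.1, 24.1 and 31.3 CPM in db/db and 24.9, 20.1 and 18.2 CPM in db/+. It gave 32.4, 25.9, 28.5 and 33.9 CPM in STZ-HFD and 28.9, 35.6, 28.7 and 34.1 CPM in Con+Veh. Both comparisons overlapped (0.35, adjusted p = 0.323, and -0.03, adjusted p = 0.953, limma), and the STZ-HFD interval, -0.39 to 0.33, was the narrowest of the 37 genes in that comparison. Fundc1, whose protein is a receptor linked to low oxygen, gave 4.74, 3.26 and 2.95 CPM in db/db and 2.67, 2.12 and 2.97 CPM in db/+. It gave 2.88, 1.58, 2.80 and 4.70 CPM in STZ-HFD and 4.27, 5.13, 3.90 and 4.35 CPM in Con+Veh. The log2 fold changes had opposite signs in the 2 models, 0.49 (adjusted p = 0.373) and -0.42 (adjusted p = 0.544), and the difference of 0.91 did not pass its own test (adjusted p = 0.308, limma). Over all 37 genes, 21 had the same sign in both models.

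The db/db values moved with base composition. Over 16899 genes with a known GC content, the log2 fold change in db/db had a Spearman rho of -0.428 with the GC content of the annotated transcripts, and -0.579 over the 37 autophagy genes; in STZ-HFD these were -0.078 and -0.105. These correlations are across genes of the same libraries and carry no p. The 6 genes with all db/db mice higher had 38.8% to 57.7% GC (median 44.5%), and the 8 with all db/db mice lower had 49.7% to 59.2% (median 52.9%). After the trend was removed from each library, the rho over the 37 genes was -0.188, the SD of their log2 fold changes in db/db went from 0.522 to 0.434, and 6 (16.2%) instead of 12 had an unadjusted p under 0.05, where the share of all genes went from 21.1% to 15.8%. Atg101, a GC-rich gene with 57.7%, then had a log2 fold change of 1.42 (adjusted p = 0.0909), while Atg10 had 0.63 and Atg4a 0.83; Ulk1 and Atg2a had -0.22 and -0.14. In STZ-HFD, Atg3 had -0.91 after the same step (adjusted p = 0.0635, limma). The cause of the trend was not tested.

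**Figure D4:**
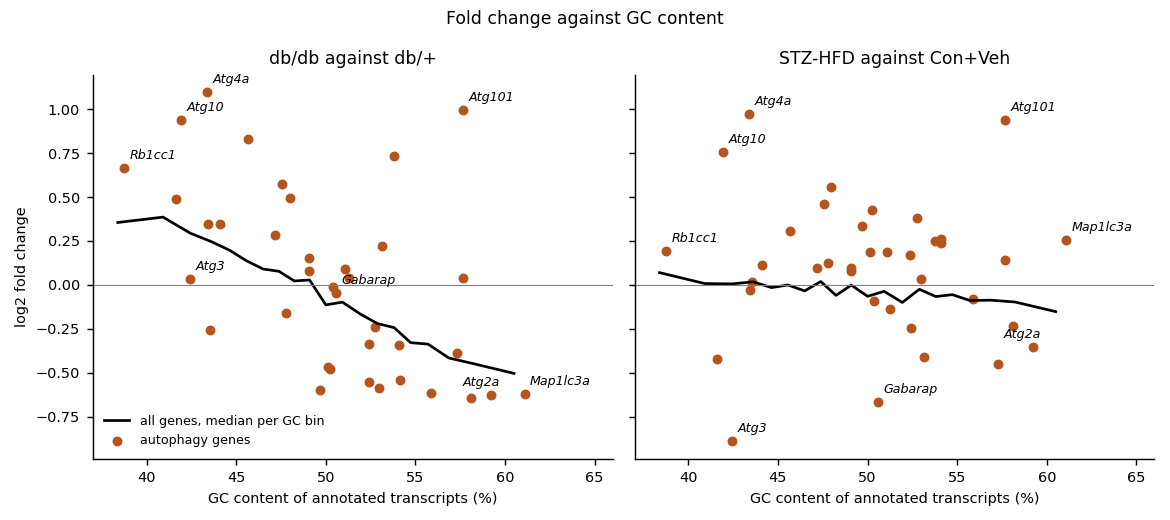
Log2 fold change of the 37 autophagy genes (points) against the GC content of their annotated transcripts, with the median of all genes in 20 GC bins (line), for db/db against db/+ (left) and STZ-HFD against Con+Veh (right). The line slopes down on the left (Spearman rho -0.428) and is nearly flat on the right (-0.078); Atg101 lies far above it in both.

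A further 74 genes of the pathway, which act upstream of the 37 genes, beside them or at fusion with the lysosome, were tested in the same fit. In db/db, 2 of 74 passed as higher and 0 as lower, and in STZ-HFD 5 passed as higher and 0 as lower (adjusted p under 0.05, limma; the background is given above). The 2 in db/db were Tax1bp1, the gene of a cargo receptor, and Rab33b, the gene of a small GTPase that recruits the ATG16L1 complex. Tax1bp1 gave 57.8, 42.7 and 45.4 CPM in db/db and 28.6, 24.6 and 23.7 CPM in db/+. Rab33b gave 24.2, 21.8 and 24.6 CPM in db/db and 9.54, 14.4 and 9.30 CPM in db/+. Neither gene overlapped between the groups (0.91 ± 0.20 SE, adjusted p = 0.0297, and 1.08 ± 0.27 SE, adjusted p = 0.0496, limma), and in STZ-HFD their log2 fold changes were 0.01 and -0.01. The count in db/db was 1 with DESeq2 and 0 with the edgeR quasi-likelihood test, after the GC trend was removed, and without any 1 db/db mouse or db/+ replicate 2 or 3. It was 1 without db/+ replicate 1, Con+Veh replicate 3 or Con+Veh replicate 4, and 4 without Con+Veh replicate 2 or STZ-HFD replicate 2. No transcription factor of the pathway passed among 6 tested (Tfeb, Tfe3, Mitf, Foxo1, Foxo3 and Zkscan3).

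By list, the genes passing in STZ-HFD were 2 of 15 upstream kinase genes, 1 of 11 further receptors and 2 of 15 further mitophagy genes, with 0 of 13 other core factors, 0 of 14 fusion factors and 0 of 6 transcription factors. The further mitophagy genes had 13 of 15 positive log2 fold changes (median 0.61), where 47.2% of all genes were positive. Of these 15, 9 had an unadjusted p under 0.05, where 17.9% of all genes did. In the same comparison 7 of 15 muscle markers were higher, and the part of muscle RNA was not tested beyond the covariate below. Of the 5 genes that passed in STZ-HFD, 2 encode subunits of AMPK, the energy-sensing kinase that activates ULK1. Prkab2 (beta 2) gave 30.4, 23.3, 33.0 and 38.0 CPM in STZ-HFD and 8.37, 30.0, 11.7 and 10.6 CPM in Con+Veh, and Prkaa2 (alpha 2) gave 30.6, 32.8, 67.1 and 65.0 CPM and 19.7, 56.5, 20.8 and 22.4 CPM. In both, Con+Veh replicate 2 lay among the STZ-HFD mice (1.40 ± 0.24 SE, adjusted p = 0.0070, and 1.23 ± 0.28 SE, adjusted p = 0.0263, limma). Retreg1, the gene of an endoplasmic reticulum receptor, gave 31.3, 53.2, 110 and 76.3 CPM against 30.3, 44.0, 31.8 and 32.4 CPM (1.20 ± 0.24 SE, adjusted p = 0.0147, limma). Mfn2, the gene of the mitochondrial fusion protein mitofusin 2, gave 80.1, 103, 148 and 91.1 CPM against 62.8, 71.7, 50.9 and 73.9 CPM and was the only one of the 5 without overlap (0.88 ± 0.22 SE, adjusted p = 0.0349, limma). Vdac1, the gene of a channel of the outer mitochondrial membrane, gave 147, 180, 558 and 440 CPM against 124, 416, 149 and 149 CPM, with overlap (1.22 ± 0.32 SE, adjusted p = 0.0462, limma). The muscle marker score in the same libraries ran from 8.72 to 9.97 in STZ-HFD and from 8.60 to 8.92 in Con+Veh (mean log2 CPM; difference 0.816, two-sided exact permutation p = 0.114, adjusted p = 0.381), and with that score as a covariate 0 of the 74 genes passed as higher, as did 0.13% of all genes in place of 1.65%. The log2 fold changes under that covariate were 1.29 for Prkab2 (adjusted p = 0.0702), 0.70 for Prkaa2 (0.361), 0.67 for Retreg1 (0.293), 0.31 for Mfn2 (0.585) and 0.58 for Vdac1 (0.529, all adjusted p, limma). The count was also 0 with the edgeR quasi-likelihood test, with DESeq2, and without Con+Veh replicate 3, Con+Veh replicate 4 or STZ-HFD replicate 3, and it was 1 without STZ-HFD replicate 4.

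Lamp2, the gene of a lysosomal membrane protein needed for fusion, was the only one of the 74 whose difference between the models passed. It gave 260, 195 and 232 CPM in db/db and 133, 110 and 114 CPM in db/+, with no overlap (0.94 ± 0.24 SE, adjusted p = 0.0523, limma). In the other cohort it gave 102, 103, 134 and 177 CPM in STZ-HFD and 119, 233, 195 and 180 CPM in Con+Veh (-0.44 ± 0.19 SE, adjusted p = 0.232, limma). The difference was 1.38 ± 0.31 (SE; adjusted p = 0.0333, limma). It did not pass with the edgeR quasi-likelihood test, without quality weights, with replicate number as a block, with the GC trend removed or with either marker score as a covariate. Nor did it pass without Con+Veh replicate 3 or 4, STZ-HFD replicate 2 or 3, db/db replicate 1 or 3 or any 1 db/+ mouse.

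**Figure D5:**
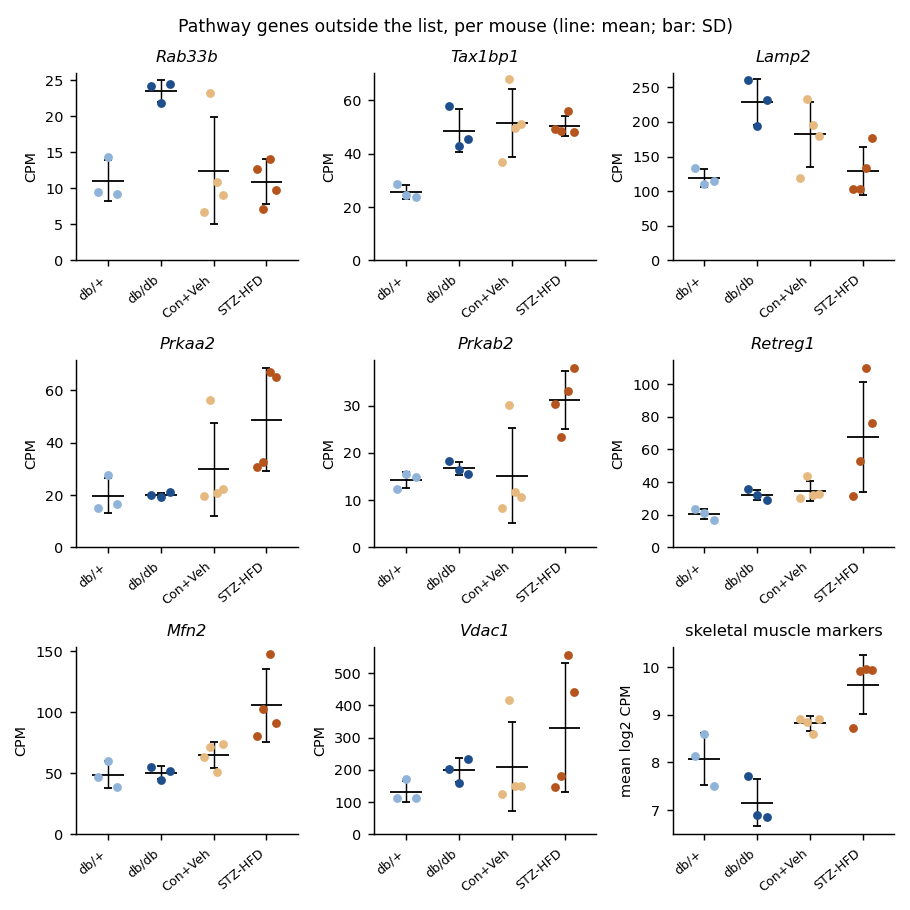
CPM in each mouse (points), with group mean (line) and SD (bar), for the 8 pathway genes that passed a test outside the list of 37, and the mean log2 CPM of 15 skeletal muscle markers (last panel, axis not from 0); db/+ and db/db n = 3, Con+Veh and STZ-HFD n = 4. Tax1bp1, Rab33b and Lamp2 separate db/db from db/+, and 3 of 4 STZ-HFD mice lie above every Con+Veh mouse in the muscle score.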

How the data were processed

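RNA of 14 mouse tail disc samples was sequenced by the authors after whole-transcriptome amplification. Reads were aligned with STAR to GRCm38 (Ensembl annotation) and counted per gene with featureCounts; the strand setting is not given in the sources used here. The authors deposited whole-number gene counts without normalization, and a table of estimated counts per transcript that they made with Salmon, which was rounded after summing per gene and used for 1 alternative. The gene table held 55774 lines, of which 287 repeated a gene, leaving 55487 genes. The transcript table used here listed fewer transcripts than annotated for 20 of the 37 genes, so its totals are partial. Positions and lengths came from GENCODE M21 and promoters from RefSeq (GRCm38.p6).

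Groups came from the sample labels; the labels give the diet as 80% of calories from fat and the study's methods as 60%. Libraries were normalized with TMM (edgeR 4.0.16, R 4.3.3). Genes above 1 CPM in at least 3 libraries were kept before that step, with CPM scaled to library size alone. They entered limma 3.58.1 voomWithQualityWeights, the study's test, with a mean per group and Benjamini-Hochberg adjustment over 16915 genes. All 14 libraries were in 1 fit and shared 1 estimate of the spread. Calls used an adjusted p under 0.05 at any fold. Marker scores (mean log2 CPM, prior count 2) were compared between groups with an exact permutation test (two-sided); it cannot go below p = 0.10 with 3 mice a group or 0.029 with 4. DESeq2 1.42.0, edgeR's quasi-likelihood test, other filters and scalings, covariates, a replicate block and leaving out each library were alternatives. Genes given mouse by mouse were the 3 highest and 3 lowest per comparison, any past the threshold, and Map1lc3b, Gabarapl1, Sqstm1, Pink1, Bnip3l and Fundc1; other pathway genes were named where they passed. The 37 genes, the lists and the tests were chosen with earlier results of these data known. The scripts were tested on simulated data. Of the 37 genes, 12 share exon sequence with another gene, 11 of them on the opposite strand, and Bnip3l has a pseudogene copy (at most 85 counts), so their counts are less certain. Replicates were separate mice; none of the 18 replicate pairs agreed within counting noise (chi-square per degree of freedom 32.7 to 356), which checks only for duplicated libraries. Depth of 16076908 to 58943169 counts, ribosomal RNA included, gave floors (3 counts, counting error only) of 0.0509 to 0.187 CPM.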

Additional observations from a re-analysis of the deposited data

Results flagged for a closer look

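In each group of 4 mice the 37 genes were examined for a single mouse far from the other 3 on the CPM scale, 74 groups in all, of which chance marks about 1 in 20. In all, 5 such values were found, all in STZ-HFD. STZ-HFD replicate 3 stood at 36.1 CPM for Atg101 (the other 3 at 10.1 to 13.7) and at 27.2 CPM for Atg4a (the others at 8.32 to 11.3). STZ-HFD replicate 4 stood at 32.6 CPM for Atg3 (the others at 15.4 to 17.4) and, as the lowest of its group, at 73.8 CPM for Pink1 (the others at 99.5 to 103). STZ-HFD replicate 1 stood at 32.1 CPM for Wipi2 (the others at 27.0 to 27.5).

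Lamp2 passed the test of the difference between the models in the main fit, with a log2 difference of 1.38 (adjusted p = 0.0333, limma), from 0.94 in db/db and -0.44 in STZ-HFD. Neither comparison passed on its own. The difference did not pass with the edgeR quasi-likelihood test, without quality weights, with the replicate block, with the GC trend removed or with either marker score. It was also lost without any 1 db/+ mouse and without several other single libraries.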

How the results depend on the processing

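With 3 or 4 mice a group, log2 fold changes of up to 1.10 did not pass. The count of 0 autophagy genes past the threshold held in 13 of 14 leave-one-out fits for each model (0 to 1 in each: Atg101 higher without STZ-HFD replicate 3, Atg3 lower without STZ-HFD replicate 4) and in 14 of 14 for the difference, which says little where few genes of any kind were called (0.102% of all genes in STZ-HFD without Con+Veh replicate 3, 0.125% in db/db without db/+ replicate 2). Without both libraries whose names end in RIP, 1 was lower in STZ-HFD (Atg3, -1.26, adjusted p = 0.0351, limma). Fitting each model alone gave 1 higher in db/db. Leaving out both libraries with the lowest quality weights, and joining GC and block, were chosen after seeing the data.

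With replicate number as a block, 8 autophagy genes were higher and 4 lower in db/db (10.3% and 9.87% of all genes), and none was called in STZ-HFD (0.0355% of all genes); with the GC trend removed as well, 4 were higher (7.87% of all genes). Same-numbered mice are different animals, and the labels state no pairing. Their deviations from the group means had r from -0.280 to 0.192 in the db/db cohort and from -0.260 to -0.0422 in the STZ-HFD cohort. Mice of different number had r from -0.275 to 0.453 and from -0.172 to 0.261. So few correlations cannot show whether same-numbered mice shared a source of variation. Under the block the other pathway genes gave 13 higher and 11 lower in db/db and 0 in STZ-HFD and in the difference, and with GC as well 6, 4, 0 and 0.

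Of the 74 pathway genes, the 2 higher in db/db became 0 (edgeR, no quality weights, transcript totals, adipocyte score, GC trend removed), 1 (DESeq2, filterByExpr, muscle score, a log2 fold change of at least 1), 4 (no filter on low counts, without RIP libraries) or 5 (model alone), and 0 to 4 leaving out 1 library (0 without any 1 db/db mouse or db/+ replicate 2 or 3). The 5 higher in STZ-HFD became 0 (edgeR, DESeq2, no quality weights, transcript totals, both marker scores), 1 (no filter, without RIP libraries), 2 (filterByExpr) or 3 (ribosomal genes removed, model alone), and 0 to 6 leaving out 1 library; the muscle score gave 1 lower. The 1 higher in the difference became 0 (edgeR, no quality weights, both marker scores, GC trend removed) and 0 to 1 leaving out 1 library, as did the 0 lower. In db/db the share of all genes called higher was 0% with edgeR and the adipocyte score, and 0.0414% without quality weights. It was 0.973% with no filter, 2.03% without RIP libraries and 2.87% with the model alone. In STZ-HFD it was 0.0355% with edgeR, 0.0177% without quality weights and 0.0118% with the adipocyte score. It was 0.774% with DESeq2, 0.213% with no filter and 1.1% with the model alone. A count of 0 says little where such shares are low. The cause of these changes in counts was not tested.

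Signs that turned were Map1lc3a in db/db (muscle score 0.022; GC and block 0.028) and STZ-HFD (muscle score -0.61), Gabarapl1 in STZ-HFD (muscle score -0.56), Sqstm1 in db/db (muscle score 0.24) and STZ-HFD (muscle score -0.67; transcript totals -1.15), Atg3 in db/db (block -0.012, adipocyte score -0.77, GC -0.27, GC and block -0.33), Gabarap in db/db (block 0.10, transcript totals 0.66, muscle score 0.30, GC 0.021, GC and block 0.14), Atg9a in db/db (GC 0.013), Map1lc3b in db/db (transcript totals -0.81, adipocyte score -0.076), Bnip3l in db/db (GC and block -0.042) and STZ-HFD (model alone 0.013) and Fundc1 in STZ-HFD (transcript totals 1.49). Transcript totals were 0.391% (Map1lc3b), 0.384% (Gabarap) and 4.57% (Sqstm1) of the gene counts. The signs above cover only the autophagy genes given mouse by mouse. Among these genes, leaving out 1 library spanned 0 in db/db for Atg3 (-0.12 to 0.29), Gabarap (-0.12 to 0.11) and Pink1 (-0.11 to 0.19). In STZ-HFD it spanned 0 for Bnip3l (-0.15 to 0.041) and Pink1 (-0.0040 to 0.32). Of the other autophagy genes, it spanned 0 for Pik3r4 (-0.074 to 0.19) and Uvrag (-0.048 to 0.083) in db/db. In STZ-HFD it did so for Becn1, Pik3c3, Pik3r4, Atg14, Atg2b, Atg4b, Atg4c (-0.43 to 0.16), Atg4d, Atg7 and Atg12. It also spanned 0 for marker scores of Schwann cells (-0.72 to 0.10 in db/db, -0.10 to 0.80 in STZ-HFD), erythroid cells (-0.046 to 0.38 in db/db), macrophages (-0.080 to 0.29 in db/db), endothelium (-0.24 to 0.21 in STZ-HFD; RLE factors 0.0025) and nucleus pulposus (-0.39 to 0.33 in STZ-HFD).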
